A study of Mus musculus with 4 samples.

Results

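The genes described here are the myosins, tropomyosins and profilins of B220+CD43+ bone marrow cells, compared between Hdac3-deleted and wild-type mice. Members were taken by symbol: entries of the expression table whose names begin with Myh, Myl or Myo followed by a digit, together with Tpm1, Tpm2, Tpm3, Tpm4, Pfn1 and Pfn2. This gave 55 of the 23275 entries. They comprise 14 conventional myosin heavy chains, 11 myosin light chains, 24 unconventional myosins, 4 tropomyosins and 2 profilins. The set was chosen by gene name with the FPKM levels of both genotypes in view, so the genotype comparison below is a description of these genes and not a test of the set.

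The Hdac3-deleted mice were Hdac3F/-Mb1cre+/-, with 1 conditional allele, 1 null allele and a Cre recombinase expressed from the Mb1 locus of the B lineage. The wild-type mice were Hdac3+/+Mb1cre+/-, so both genotypes carried the recombinase. The term Hdac3-deleted cells stands for the sorted cells of the former mice, and the share of these cells that had lost the gene was not tested. All were C57BL/6 mice of 8 weeks of age. Each genotype had 2 libraries of polyadenylated RNA, each made from the pooled cells of 2 mice, and the authors combined the 2 libraries into 1 level per gene. Levels are in FPKM, which counts fragments per length of transcript and library size and allows genes of different lengths to be compared. With 1 value per genotype there is no spread between libraries, and the depth of the libraries is unknown. Per-gene evidence is therefore limited to the authors' Cuffdiff q-value, an adjusted p-value, and a gene is called changed where q was under 0.05.

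Conventional, or class II, myosins are hexamers of a pair of heavy chains, each of which binds 1 essential and 1 regulatory light chain, and they slide actin filaments in contraction, migration and cell division. Unconventional myosins carry membranes or cargo along actin or tether them to it. Tropomyosins lie along the actin filament and govern which myosins and severing proteins reach it, and profilins bind actin monomers and deliver them to growing filament ends.

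The Hdac3-deleted samples showed opposite changes in a pair of myosin light chain transcripts and a lower level of the minor profilin. Myl4, an essential light chain best known from atrial and embryonic muscle, fell 8.25-fold. Myl10, a regulatory light chain that RefSeq also lists under the synonym PLRLC and that was described in mouse lymphocyte precursors, rose 3.63-fold. Pfn2, the profilin best known from neurons, fell 5.88-fold. The widely expressed members Myh9, Myl6, Myl12a, Myl12b, Tpm3, Tpm4 and Pfn1 did not pass the test, and their log2 differences lay between -0.21 and 0.17.

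Of the 55 members, 30 were tested by the authors and 25 were not. The untested members reached at most 0.344 FPKM, and 6 members were listed at 0 in both genotypes. Among the 30 tested members 6 were called, which is 20.0% of them. Of these, Myl10, Myo5c, Myo6 and Myo7a were higher in Hdac3-deleted cells, and Myl4 and Pfn2 were lower. Over all 12683 tested entries, 6.95% were called, 2.81% higher and 4.14% lower. At least a 2-fold difference was also met by 4 of the 6, Myl4, Pfn2, Myl10 and Myo5c, and by 3.36% of tested entries. A q under 0.01 was met by 4 as well, with Myo6 in place of Myo5c, and by 4.21% of tested entries. Since the members were chosen with these results known, nothing is read from the gap between the shares. For the 27 members with at least 1 FPKM in a genotype, the median log2 fold change was 0.10, against 0.02 over the 11617 entries of the table with that level. The median absolute log2 fold change was 0.18 for these members and 0.20 for those entries. Together the 55 members made up 0.515% of all FPKM in Hdac3-deleted cells and 0.530% in wild-type cells.

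**Figure D1:**
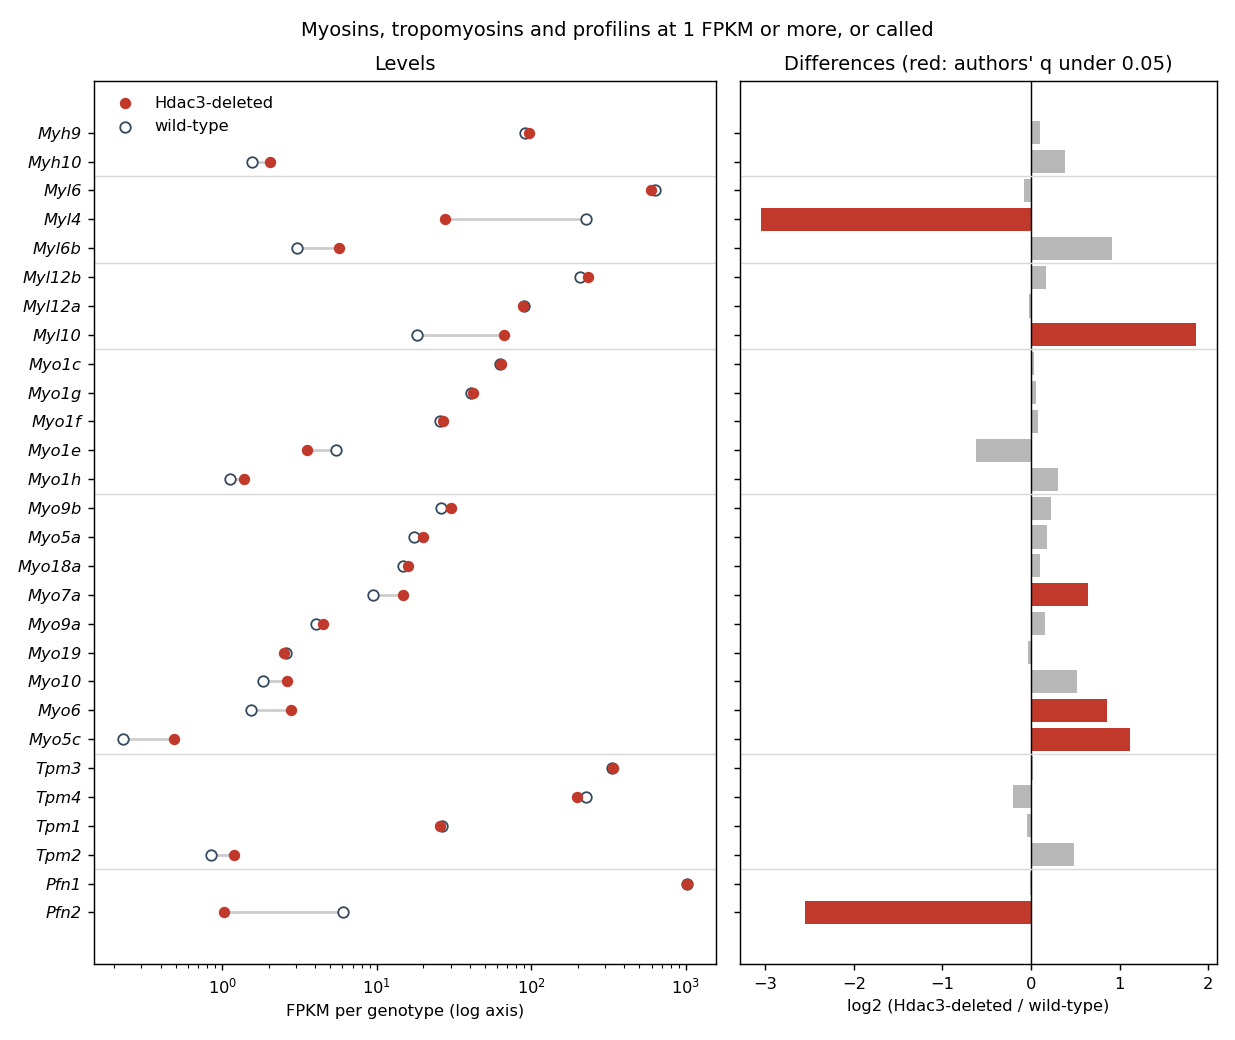
Levels in FPKM on a log axis (left; filled red points for Hdac3-deleted, open points for wild-type, 1 value per genotype) and log2 of Hdac3-deleted over wild-type (right; red bars for an authors' q under 0.05) for the 28 members with at least 1 FPKM in a genotype or a call, with lines between functional classes. The points of most abundant members overlie each other, while Myl4 and Pfn2 extend to -3.04 and -2.56 and Myl10 to 1.86.

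Sequence before the starts of the 2 light chain genes that changed is shown first, since their transcripts moved apart while the light chains of general use did not pass the test. The bases are on build GRCm38.p6, which has the mm10 coordinates, and are written 5′ to 3′ on the strand of the gene. For Myl10 they are the 250 bases before the RefSeq start that coincides with the start of the deposited entry. For Myl4 they are the 42 bases between its start and the entry of Cdc27, which runs in the opposite direction. Capitals would mark a match to any of 3 motifs searched on both strands, and neither run holds one.
Myl4, chr11:104550621-104550662, plus strand: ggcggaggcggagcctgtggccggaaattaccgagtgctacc
Myl10, chr5:136692896-136693145, plus strand: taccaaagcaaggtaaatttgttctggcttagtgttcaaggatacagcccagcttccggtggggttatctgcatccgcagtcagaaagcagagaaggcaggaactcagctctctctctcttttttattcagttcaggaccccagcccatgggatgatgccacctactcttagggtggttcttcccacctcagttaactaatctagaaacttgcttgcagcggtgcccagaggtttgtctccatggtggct

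The motifs were the CArG box, the binding sequence of serum response factor at many actin and myosin genes, TGANTCA, the AP-1 motif, and CAGGTG, an E-box bound by E proteins. They were searched in windows of 250 bases before each RefSeq start. GC content was 63.6% in the Myl4 window, 49.6% in the printed Myl10 window and 78.0% in that of Pfn2, against a median of 52.4% over all 32851 windows. RefSeq lists further starts for Myl10, and GENCODE lists further starts downstream for Myl4 and within Pfn2. The deposited values do not separate transcripts from different starts.

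A CArG box was found in 6 of 61 windows of members, or 9.84%, against 1.47% of all windows. TGANTCA was found in 5 member windows, or 8.20% against 6.75% of all windows, and CAGGTG in 7, or 11.5% against 17.2%. Of the 49 members with a window, the 6 with a CArG box are listed here with 10 bases on either side and the CArG box in capitals, because they include both the most abundant light chain and genes that were silent in these cells.
Myl6, chr10:128493040-128493069, minus strand: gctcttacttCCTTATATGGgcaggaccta
Myo1e, chr9:70207308-70207337, plus strand: gctgaattctCCATTTATGGacagattgcc
Myl9, chr2:156775293-156775322, plus strand: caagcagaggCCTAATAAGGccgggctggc
Myl7, chr11:5898824-5898853, minus strand: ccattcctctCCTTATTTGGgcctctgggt
Myl3, chr9:110763583-110763612, plus strand: gagccaatgcCCTTTTATGGccctgtccct
Myh4, chr11:67237698-67237727, plus strand: aaagagattgCCAAAAATGGttttgccaag

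The CArG box began 50 bases before a RefSeq start of Myl6 and 32 bases before the start of Myo1e. That Myl6 start lies inside the deposited entry, which runs from 128490861 to 128493825. The window of a further Myl6 start, from 128493887 to 128494136, held none of the 3 motifs. Myl6 was among the most abundant members, at 598 FPKM in Hdac3-deleted and 629 FPKM in wild-type cells, while Myl3 and Myl7 were listed at 0 in both genotypes. None of the 9 windows of the 6 called members held any of the 3 motifs. These matches describe the sequence only and say nothing of which factors bind.

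Among heavy chains of class II, the non-muscle gene Myh9 was the main member in both genotypes. Myh9, which encodes the heavy chain of non-muscle myosin IIA, was at 97.2 FPKM in Hdac3-deleted and 90.9 FPKM in wild-type cells. Myh10, the IIB chain, was at 2.05 FPKM in Hdac3-deleted and 1.57 FPKM in wild-type cells, and Myh14, the IIC chain, at 0.578 FPKM in Hdac3-deleted and 0.362 FPKM in wild-type cells. Myh9 thus supplied 97.4% of the summed FPKM of these 3 genes in Hdac3-deleted cells and 97.9% in wild-type cells. None of the 3 was called, with authors' q-values of 0.920, 0.404 and 0.243 in the authors' deposited table.

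The 11 other heavy chain genes, which include those of skeletal, cardiac and smooth muscle, were near the bottom of the table. Their sum was 0.655 FPKM in Hdac3-deleted cells and 0.492 FPKM in wild-type cells. Most of that came from Myh13, the heavy chain of extraocular muscle, at 0.580 FPKM in Hdac3-deleted and 0.419 FPKM in wild-type cells, the 1 tested gene of the 11, which did not pass (q = 0.508 in the authors' deposited table). Myh13 lies in a cluster of 6 skeletal muscle heavy chain genes on chromosome 11, from 67078300 to 67371502 of mm10. Of the other 5, Myh1, Myh2 and Myh8 were listed at 0 in both genotypes. Myh11, the smooth muscle heavy chain, was at 0.0197 FPKM in Hdac3-deleted and 0.0250 FPKM in wild-type cells.

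Essential light chains stabilise the lever arm of the motor. Among them, Myl4 carried the largest difference of all tested members and altered the make-up of the class. Myl4, on chromosome 11 from 104550663 to 104587219 of mm10, was at 27.5 FPKM in Hdac3-deleted cells and 227 FPKM in wild-type cells, 12.1% of the wild-type level. Ranked by level among all 23275 entries, it stood 3665th in Hdac3-deleted cells and 362nd in wild-type cells. The authors' deposited table gives q = 0.00160 for Myl4.

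Myl6, the general non-muscle essential chain, was at 598 FPKM in Hdac3-deleted and 629 FPKM in wild-type cells and was not called (q = 0.928 in the authors' deposited table). Myl4 therefore made up 4.35% of the summed essential light chain FPKM in Hdac3-deleted cells and 26.4% in wild-type cells. The sum itself was 631 FPKM in Hdac3-deleted cells and 859 FPKM in wild-type cells, a ratio of 0.735. Myl6b, a further essential chain encoded next to Myl6, was at 5.72 FPKM in Hdac3-deleted and 3.04 FPKM in wild-type cells and lay just outside the threshold (q = 0.0531 in the authors' deposited table). Myl1 and Myl3, chains of fast and slow or cardiac muscle, reached at most 0.344 FPKM.

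The regulatory light chains, whose phosphorylation switches class II myosins on, had Myl10 as the 1 called gene, in the opposite direction. Myl10, on chromosome 5 from 136693146 to 136701094, was at 66.2 FPKM in Hdac3-deleted cells and 18.3 FPKM in wild-type cells (q = 0.00160 in the authors' deposited table). Of the general non-muscle regulatory chains, Myl12b was at 232 FPKM in Hdac3-deleted and 206 FPKM in wild-type cells, and Myl12a at 88.6 FPKM in Hdac3-deleted and 90.1 FPKM in wild-type cells. Neither was called, with q = 0.765 and 0.979 in the authors' deposited table. Myl10 made up 17.1% of the summed regulatory light chain FPKM in Hdac3-deleted cells and 5.80% in wild-type cells, and the sum was 387 FPKM in Hdac3-deleted cells and 315 FPKM in wild-type cells. Myl9, Myl2 and Myl7, chains of smooth muscle, ventricle and atrium, reached at most 0.264 FPKM.

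Set side by side, Myl10 was 2.41 times as abundant as Myl4 in Hdac3-deleted cells, whereas in wild-type cells Myl4 was 12.4 times as abundant as Myl10. Summed essential chains exceeded summed regulatory chains 1.63-fold in Hdac3-deleted cells and 2.73-fold in wild-type cells. These ratios compare RNA levels per length in the whole sorted population, and whether both transcripts were made in the same cells was not tested. In such bulk samples, fewer cells of a type and less RNA per cell cannot be told apart.

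**Figure D2:**
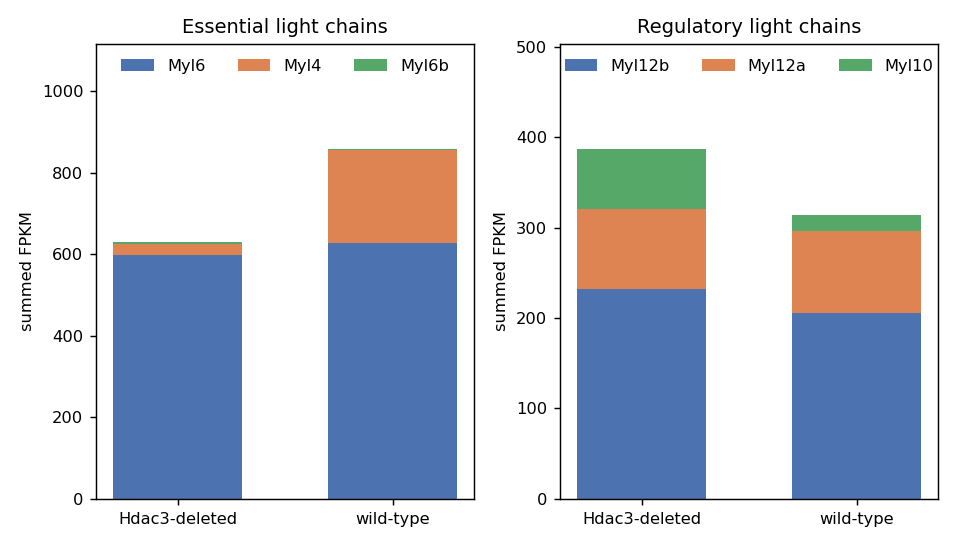
Summed FPKM of the 3 essential (left) and 3 regulatory (right) light chains above 1 FPKM, stacked by gene, in Hdac3-deleted and wild-type cells, 1 value per genotype. The Myl4 segment is 27.5 FPKM in Hdac3-deleted and 227 FPKM in wild-type cells, and the Myl10 segment is 66.2 FPKM in Hdac3-deleted and 18.3 FPKM in wild-type cells.

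Class I myosins, single-headed motors that link membranes to actin, had 8 members, of which 5 were tested and 0 called. Of these, 4 of the 5 tested members had positive log2 fold changes, of at most 0.30. Myo1c, a widely expressed motor, was at 64.1 FPKM in Hdac3-deleted and 62.4 FPKM in wild-type cells. Myo1g, a motor of haematopoietic cells, was at 42.2 FPKM in Hdac3-deleted and 40.7 FPKM in wild-type cells. Myo1f, a motor known from neutrophils and other leukocytes, was at 27.0 FPKM in Hdac3-deleted and 25.5 FPKM in wild-type cells, so all 3 were nearly level between genotypes.

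Myo1e differed from these 3, at 3.55 FPKM in Hdac3-deleted and 5.47 FPKM in wild-type cells, just outside the threshold (q = 0.0542 in the authors' deposited table). Myo1h, at 1.38 FPKM in Hdac3-deleted and 1.12 FPKM in wild-type cells, shares its locus with Kctd10, and 25.8% of its annotated exonic bases overlap that opposite-strand gene, so its value is less certain. The 8 class I genes summed to 138 FPKM in Hdac3-deleted cells and 136 FPKM in wild-type cells.

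The other unconventional myosins contributed 3 higher genes and 0 lower genes among 9 tested of 16 members. Over all tested entries 2.81% were called higher and 4.14% lower, and nothing is read from the counts of this class. Myo7a, a motor of sensory hair bundles, was at 14.8 FPKM in Hdac3-deleted and 9.46 FPKM in wild-type cells, a ratio of 1.56 (q = 0.0146 in the authors' deposited table). Myo6, which moves toward the pointed end of actin and serves endocytosis, was at 2.79 FPKM in Hdac3-deleted and 1.54 FPKM in wild-type cells, a ratio of 1.81 (q = 0.00290 in the authors' deposited table). Myo5c, a vesicle motor of epithelial and gland cells, was at 0.491 FPKM in Hdac3-deleted and 0.227 FPKM in wild-type cells, and lay just inside the threshold (q = 0.0434 in the authors' deposited table). Its log2 fold change of 1.11 became 0.28 once 1 FPKM was added to both levels.

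All 3 called genes of this class were thus lower in abundance than its leading members, which did not pass the test. Myo9b, whose tail holds a GTPase-activating domain, was at 30.4 FPKM in Hdac3-deleted and 26.0 FPKM in wild-type cells. Myo5a, a motor of vesicles and melanosomes, was at 19.8 FPKM in Hdac3-deleted and 17.5 FPKM in wild-type cells, and Myo18a at 16.0 FPKM in Hdac3-deleted and 14.9 FPKM in wild-type cells. Myo9a, Myo10 and Myo19, the last a motor of mitochondria, were between 2.51 and 4.51 FPKM in Hdac3-deleted cells and between 1.84 and 4.05 FPKM in wild-type cells. Myo19 shares its locus with Pigw and Znhit3, and its exons overlap theirs on the opposite strand. The remaining 7 members were untested and at most 0.175 FPKM.

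Myo5c and Myo5a are neighbours on chromosome 9, 8327 bases apart on the same strand. Myo7a lies on chromosome 7 from 98051054 to 98119493, Myo6 on chromosome 9 from 80165034 to 80311729, and Myo5c on chromosome 9 from 75232014 to 75305450 of mm10.

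No tropomyosin was called, and the order of the 4 genes was the same in both genotypes. Tpm3, a source of short cytoskeletal tropomyosins, led at 339 FPKM in Hdac3-deleted and 333 FPKM in wild-type cells. Tpm4, likewise cytoskeletal, was at 197 FPKM in Hdac3-deleted and 227 FPKM in wild-type cells, a log2 fold change of -0.21 (q = 0.722 in the authors' deposited table). Tpm1 was at 25.5 FPKM in Hdac3-deleted and 26.3 FPKM in wild-type cells, and Tpm2, best known from muscle, at 1.20 FPKM in Hdac3-deleted and 0.852 FPKM in wild-type cells. Tpm3 and Tpm4 together accounted for nearly the whole class, and Tpm3 alone for 60.2% of its FPKM in Hdac3-deleted and 56.7% in wild-type cells.

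The profilins divided into an abundant and a minor gene. Pfn1, the general profilin, was at 1014 FPKM in Hdac3-deleted and 1022 FPKM in wild-type cells, ranking 89th of all entries in Hdac3-deleted and 93rd in wild-type cells, and was the most abundant member (q = 0.991 in the authors' deposited table). Pfn2, on chromosome 3 from 57841895 to 57847757, was at 1.03 FPKM in Hdac3-deleted and 6.04 FPKM in wild-type cells, 17.0% of the wild-type level (q = 0.00160 in the authors' deposited table). Its log2 fold change of -2.56 became -1.80 once 1 FPKM was added to both levels. Since Pfn2 made up 0.101% of profilin FPKM in Hdac3-deleted and 0.587% in wild-type cells, the profilin sum stayed close, at 1015 FPKM in Hdac3-deleted and 1028 FPKM in wild-type cells.

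**Figure D3:**
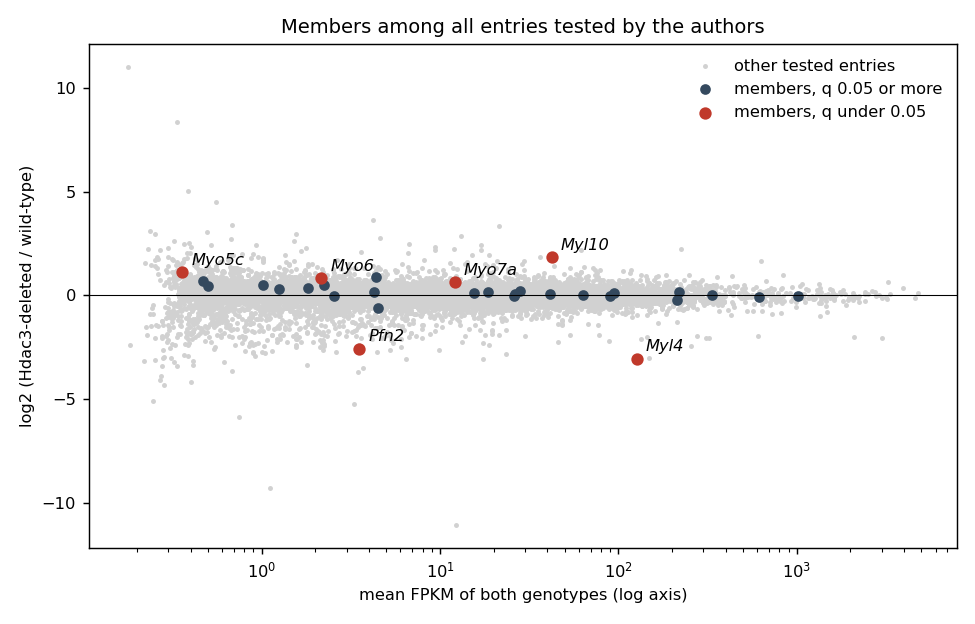
Log2 of Hdac3-deleted over wild-type against the mean FPKM of both genotypes (log axis) for every tested entry above 0 FPKM in both genotypes, with members as large points and other entries in grey. Of the 6 called members, in red, Myl4 and Pfn2 lie below 0 and Myl10, Myo5c, Myo6 and Myo7a above it.

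Genes next to the called members were read from the same table as the nearest tested entry on each side. Cdc27, a subunit of the anaphase-promoting complex, adjoins Myl4 head to head across the 42 bases printed above. Cdc27 was at 25.6 FPKM in Hdac3-deleted and 29.0 FPKM in wild-type cells and was not called (q = 0.745 in the authors' deposited table). On the other side, Itgb3, an integrin subunit of platelets and other cells, was at 8.47 FPKM in Hdac3-deleted and 7.46 FPKM in wild-type cells and was not called (q = 0.755 in the authors' deposited table). Next to Pfn2, neither Rnf13 nor Tsc22d2 was called, with log2 fold changes of 0.15 and -0.03.

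Around Myl10, Cux1 did not pass the test at 53.6 FPKM in Hdac3-deleted and 52.8 FPKM in wild-type cells, while Rabl5, 207056 bases away, fell, with a log2 fold change of -0.87. Around Myo6, Senp6 was not called and Mei4, 1552015 bases away, fell, with a log2 fold change of -1.08. Both tested neighbours of Myo7a, Pak1 and the entry LOC330599, and both of Myo5c, Myo5a and Gnb5, were not called. In all, 2 of the 12 neighbouring entries were called, both of them lower. Over all tested entries 6.95% were called and 4.14% were called lower, and nothing is read from so few neighbours.

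Sequence shared between genes can move reads from one member to another. Of the 50-base stretches in annotated Myl4 transcripts, 0.0428% also occurred in a transcript of another gene, and for Myl10, Pfn1 and Pfn2 none did. For Tpm3 the share was 23.2%, with the near-copy Tpm3-rs7, and for Myl12b 19.1% and Myl12a 16.4%, mainly with each other. The annotated exons of Myl12a and Myl12b also overlap by 462 bases on the same strand, so the split between these 2 genes is less certain than their sum. For Tpm4 the share was 11.7% and for Myl6 8.38%, and for the muscle heavy chains Myh1, Myh2 and Myh6 it was between 20.2% and 25.4%. For Myh13, the 1 tested gene among the muscle heavy chains, it was 8.26%.

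The partners of these proteins were described by lists chosen, like the members, with earlier results of these data known. Over all 12683 tested entries 6.95% were called, and nothing is read from the counts called in these partner lists. In the list of myosin activation and assembly, 0 of 18 tested genes were called, and the median log2 fold change was 0.10. Rhoa, a small GTPase that promotes myosin activation, was at 325 FPKM in Hdac3-deleted and 345 FPKM in wild-type cells, and Ppp1cb, the catalytic subunit of myosin phosphatase, at 150.0 FPKM in Hdac3-deleted and 144 FPKM in wild-type cells. Of 11 tested genes for actin and monomer-binding proteins, 1 was lower and 0 higher, with a median of -0.01. That gene was Dstn, encoding the actin-severing protein destrin, at 26.6 FPKM in Hdac3-deleted and 44.2 FPKM in wild-type cells (q = 0.00756 in the authors' deposited table).

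Formins and VASP proteins use profilin-bound actin to extend filaments, and with the Arp2/3 complex they formed a list of 24 tested genes with 1 higher, 2 lower and a median of 0.04. Evl, a VASP family member, was at 85.7 FPKM in Hdac3-deleted and 46.8 FPKM in wild-type cells (q = 0.0139 in the authors' deposited table). The formin Diap3 was at 8.17 FPKM in Hdac3-deleted and 15.3 FPKM in wild-type cells, and the formin Fmn2 at 0.216 FPKM in Hdac3-deleted and 1.40 FPKM in wild-type cells, both with q = 0.00160 in the authors' deposited table. None of 24 tested capping, severing and bundling genes was called, and their median was 0.00. Of these, Coro1a, a coronin of leukocytes, was at 470 FPKM in Hdac3-deleted and 508 FPKM in wild-type cells.

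Among partners of muscle myosin, 18 of 25 sarcomere genes stayed below 1 FPKM in both genotypes, and Actc1, Des and Mb were listed at 0. Of the 8 tested, Tnnt2, encoding cardiac troponin T, was the 1 gene called lower, and 0 were called higher. Tnnt2 was at 0.867 FPKM in Hdac3-deleted and 3.10 FPKM in wild-type cells (q = 0.00160 in the authors' deposited table). Of these 8, 3 had positive and 5 negative log2 fold changes. The sarcomere list summed to 28.8 FPKM in either genotype. Its most abundant gene, Tnni2, was at 16.2 FPKM in Hdac3-deleted and 12.4 FPKM in wild-type cells without a call. In the cytokinesis list, where Myh9 and Myh10 products act, all 7 tested genes had negative log2 fold changes, from -0.60 to -0.32, and 0 were called. Racgap1 was closest to the threshold at 64.3 FPKM in Hdac3-deleted and 97.4 FPKM in wild-type cells (q = 0.0523 in the authors' deposited table). Serum response factor and its cofactors had 0 called of 6 tested, a median of 0.11, and Myocd at 0.

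**Figure D4:**
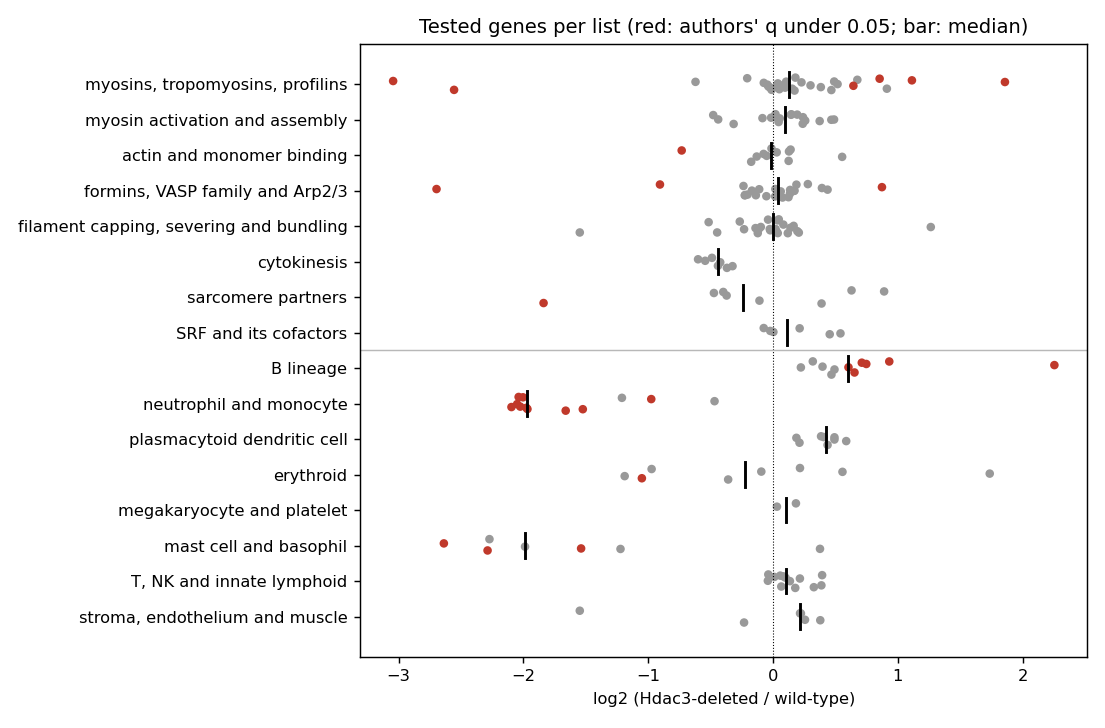
Log2 of Hdac3-deleted over wild-type for every tested gene of the members, of 7 lists of partners and, under the grey line, of 8 lists of cell type markers, with red points for an authors' q under 0.05 and a bar at each median. The members spread from -3.04 to 1.86 around a median near 0, and the neutrophil and monocyte markers lie below 0 throughout.

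Hdac3 itself was at 22.0 FPKM in Hdac3-deleted and 46.8 FPKM in wild-type cells, 47.1% of the wild-type level. Its entry includes exons outside the deleted part, and the Hdac3-deleted mice carried a null allele beside the conditional allele. The level therefore does not tell in what share of the sorted cells the conditional allele was lost, which was not tested. All 11 B-lineage markers were present, with 6 called higher and 0 lower, and they summed to 3778 FPKM in Hdac3-deleted and 2298 FPKM in wild-type cells. Over all tested entries 2.81% were called higher and 4.14% lower. Markers of other cell types were present as well. Neutrophil and monocyte markers were lower, with 10 of 12 tested called lower and sums of 2691 FPKM in Hdac3-deleted and 10845 FPKM in wild-type cells. Mast cell and basophil markers had 3 of 7 called lower and sums of 6.73 FPKM in Hdac3-deleted and 23.8 FPKM in wild-type cells, with Tpsb2 at 0. Plasmacytoid dendritic cell markers had 0 of 8 called and sums of 2863 FPKM in Hdac3-deleted and 2225 FPKM in wild-type cells. T, NK and innate lymphoid markers had 0 of 13 called and sums of 965 FPKM in Hdac3-deleted and 855 FPKM in wild-type cells.

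Myl4 and Pfn2 fell in the samples in which most neutrophil and monocyte markers were called lower, and Myl10 rose where B-lineage markers rose. The lowest log2 fold change was -2.10 among neutrophil and monocyte markers, against -3.04 for Myl4 and -2.56 for Pfn2. Mast cell and basophil markers reached -2.64. B-lineage markers ranged from 0.22 to 2.25, against 1.86 for Myl10. All 8 plasmacytoid dendritic cell markers were also positive, from 0.19 to 0.59, without a call. Of the mast cell and basophil markers, Mcpt8, Prss34 and Gata2 were called lower. Cpa3, Fcer1a and Ms4a2 were lower without a call, and Cma1 was higher without a call. The part of these cell types in the member results was not tested. For cell types in which muscle or platelet light chains abound, 12 of 13 megakaryocyte and platelet markers were below 1 FPKM in both genotypes, with Gp6 and Treml1 at 0 and sums of 10.1 FPKM in Hdac3-deleted and 9.15 FPKM in wild-type cells. Most of these sums came from Itgb3, at 8.47 FPKM in Hdac3-deleted and 7.46 FPKM in wild-type cells. Of 14 stroma, endothelium and muscle markers 10 were below 1 FPKM, with Col3a1 and Des at 0, sums of 91.4 FPKM in Hdac3-deleted and 73.9 FPKM in wild-type cells and 0 called. Pecam1 made up most of the latter sums, at 62.9 FPKM in Hdac3-deleted and 48.3 FPKM in wild-type cells. Erythroid markers summed to 40.9 FPKM in Hdac3-deleted and 69.1 FPKM in wild-type cells, with 1 of 8 tested called lower. That gene was Car2, a carbonic anhydrase, which made up most of the sum, at 26.3 FPKM in Hdac3-deleted and 54.4 FPKM in wild-type cells (q = 0.00160 in the authors' deposited table). Of the 8 tested erythroid markers, 3 had positive and 5 negative log2 fold changes. The positive ones were the globin entries Beta-s, Hbb-b2 and Hba-a2, without a call. Beta-s was at 7.37 FPKM in Hdac3-deleted and 5.01 FPKM in wild-type cells.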

How the data were processed

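Polyadenylated RNA of sorted cells was sequenced from 4 libraries, 2 per genotype, and samples were grouped by their titles. Per the submitters' processing notes, the authors used Trimmomatic 0.32, TopHat2 2.0.11 and Cuffdiff 2.1.1 on mm10. Of options, annotation, scaling and strand, nothing is given in the sources used here. Per the file headers, the deposited table holds 1 FPKM value per gene and genotype. Its test statistic, a deposited score, was not used. P-values and q-values are those of the authors. Cuffdiff's smallest p, 5e-05, was shared by 396 entries, among them Myl4, Myl10 and Pfn2, so they cannot be ranked by it.

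Members and lists were chosen with earlier results of these data known. Log2 fold changes were computed from the deposited FPKM without a pseudocount. The rule named members with at least 1 FPKM in a genotype or a call. Other members named in the text were chosen after their values were seen. Each list names up to 4 called genes by smallest q, or, with none called, up to 2 by highest mean, and the text names some of these. Genes listed at 0 were named besides. The result for 1 member is not reported here. Of the cytokinesis list, 4 septins were not matched by symbol. Starts were shifted to count from 1. Promoters are from RefSeq (GRCm38.p6, 49 of 55 members matched), exon overlaps and 50-base stretches from GENCODE M21 on the same build. The formulas for the fold change, the call, the adjusted p-value and the motif search were run on simulated data with built-in answers. That checks the arithmetic only. Alternatives were run for the q threshold, the fold, minimum levels, the pseudocount, centring, shared loci and the most abundant member of a class. Python 3.11.15, pandas 2.3.3, numpy 2.4.6 and matplotlib 3.10.9 were used.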

Additional observations from a re-analysis of the deposited data

How the results depend on the processing

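The count of higher members was 2 in place of 4 with a q under 0.01, and also 2 with at least a 2-fold difference. With a q under 0.1 it was 5, with Myl6b added, and among members with at least 1 FPKM in a genotype it was 3, without Myo5c. The count of lower members was 3 with a q under 0.1, with Myo1e added, and 2 under the other call rules run. Without Myl6, the log2 ratio of the summed essential light chains was -2.78 in place of -0.44, and without Pfn1 that of the profilins was -2.56 in place of -0.02. By construction, each then rests on Myl4 or Pfn2. With a pseudocount of 1 FPKM, 2 of the 28 named members moved by more than 1.5-fold, Myo5c and Pfn2, with their direction kept. With a pseudocount of 0.1 FPKM, or centred on the median entry at 0.02, 0 of the 28 did. Other class sums and the median of the members moved by less than 1.5-fold. No paired analysis was possible because the table used here holds 1 value per genotype, and for the same reason no library could be left out. The depth is unknown, so no counting interval is given for low members such as Myo5c and Pfn2.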

Other observations

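Of relatives outside the chosen names, Mylpf, a regulatory light chain of fast muscle whose symbol has no digit, was at 10.1 FPKM in Hdac3-deleted and 8.28 FPKM in wild-type cells and was not called (q = 0.700 in the authors' deposited table). Pfn3, a profilin known from testis, was listed at 0 in both genotypes, and Pfn4 was at 0.123 FPKM in Hdac3-deleted and 0.310 FPKM in wild-type cells without a test.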
